A study of Mus musculus with 8 samples.

Results

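The genes described are 8 neighbouring zinc finger genes on proximal mouse chromosome 7, namely Zfp180, Zfp112, Zfp235, Zfp111, Zfp109, Zfp108, Zfp93 and Zfp61. They were taken by symbol from a table of 14853 genes in which the authors compared 2 genotypes, and all 8 had a row. Zfp111 and Zfp93 drew attention to the locus because of their values in this very comparison, so the fold changes and calls of the members are given as a description and support nothing further.

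The RNA came from undifferentiated spermatogonia, the testis cells among which the germline stem cells are found. The tested mice were Tert CreER/flox (4 samples, titled TERT-del) and the controls were Tert CreER/+ (4 samples, titled TERT-hetero), so that both genotypes carried CreER at 1 Tert allele. All mice were C57BL/6, carried the reporter Rosalsl-Tdtomato/+, were 8 to 12 weeks old and received tamoxifen, which activates the Cre recombinase. Sorting on day 7 kept MCAM-high, KIT- and Tdtomato+ cells. Tert encodes the reverse transcriptase of telomerase, and the floxed allele is the one that Cre acts on. The driver of CreER is the Tert locus itself, as the allele name gives it, and the labels do not say whether each sample came from a separate animal, so the p-values measure the spread between these samples, which may be technical.

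The proteins of this cluster belong to the C2H2 zinc finger family, in which each finger is held together by cysteines and histidines around a zinc ion and a row of fingers reads DNA. Many members of the family begin with a KRAB box, which binds the co-repressor TRIM28 and, through it, the histone methyltransferase SETDB1, and so silences chromatin, transposable elements above all. Such genes arose by repeated duplication and lie in clusters, where neighbours resemble each other in sequence.

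In GRCm38 the members span chromosome 7 from 24081877 to 24303840, or 222 kb, by the gene spans of RefSeq. Their order is Zfp180 (24081877 to 24107709), Zfp112 (24112320 to 24127952), Zfp235 (24132372 to 24143244), Zfp111 (24193215 to 24208149), Zfp109 (24227795 to 24252339), Zfp108 (24254726 to 24262445), Zfp93 (24267984 to 24277794) and Zfp61 (24291045 to 24303840). Zfp111, Zfp109 and Zfp61 lie on the minus strand and the other 5 on the plus strand. The gap between neighbouring members ran from 2.39 kb, between Zfp109 and Zfp108, to 49.97 kb, between Zfp235 and Zfp111. The block holds 2 further zinc finger genes with a row, Zfp114 between Zfp235 and Zfp111 and Zfp94 at the far end, whose annotated span overlaps that of Zfp61 by 2137 bp. An antisense gene of GENCODE M21 overlaps Zfp112 by 4147 bp, and with the strand setting of the counting not given in the sources used here, reads of these 2 genes may not have been told apart.

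Upstream of the members the same letters recur. Promoter sequences of RefSeq (GRCm38.p6) cover 250 bases before to 50 after an annotated start and were found for all 8 members. The longest run of letters present before the start in at least 6 members, with 1 inner position left free, has 16 letters, TTCTGGGAANTGTAGT, whose reverse complement is ACTACANTTCCCAGAA. Letters of this kind are known as the binding motif of the factor ZNF143. The run was found, with both strands searched, in 6 of 8 members, against 0.244% of 27025 genes with a promoter in that table. Among 426 C2H2 genes outside the window that have a row and a promoter there, the share was 2.58%. Among the 117 of these whose protein has a KRAB-like match it was 4.27%. The run was taken from the members' own promoters, so the shares describe it and test nothing. The matches that lie before the start are printed here because they are the stretch the promoters have in common, 5′ to 3′ on the strand of the gene, with the shared letters in capitals.

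Zfp180: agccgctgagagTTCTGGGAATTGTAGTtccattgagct
Zfp112: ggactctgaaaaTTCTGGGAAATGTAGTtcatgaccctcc
Zfp111: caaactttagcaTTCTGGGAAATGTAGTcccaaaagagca
Zfp109: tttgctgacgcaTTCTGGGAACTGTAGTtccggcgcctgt
Zfp108, distal: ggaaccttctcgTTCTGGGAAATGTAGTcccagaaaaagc
Zfp108, proximal: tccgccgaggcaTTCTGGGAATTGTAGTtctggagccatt
Zfp93: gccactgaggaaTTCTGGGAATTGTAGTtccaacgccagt

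All matches read in the same direction relative to their gene, and they end 11 bases (Zfp180) to 137 bases (Zfp112) before the start that the promoter table uses. Zfp112 has a second match after its start. The windows searched for Zfp235, Zfp61 and Zfp94, and that of a second start of Zfp111, hold no match, which says only that these letters are not in these windows, and Zfp114 is named only. None of the printed stretches overlaps an exon of GENCODE M21. That of Zfp111 lies in an intron of a longer GENCODE transcript of the gene, and the others lie outside GENCODE genes. The RefSeq spans of Zfp180, Zfp109, Zfp108 and Zfp93 begin farther upstream and reach into the stretch of Zfp180, Zfp109 and Zfp93 and the proximal one of Zfp108.

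For the called members the whole upstream stretch is shown, since it is there that a reader can compare them. That of Zfp111 is chr7:24208150-24208399 on the minus strand and that of Zfp93 is chr7:24270168-24270417 on the plus strand, both in GRCm38.p6, again with the shared run in capitals.

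Zfp111: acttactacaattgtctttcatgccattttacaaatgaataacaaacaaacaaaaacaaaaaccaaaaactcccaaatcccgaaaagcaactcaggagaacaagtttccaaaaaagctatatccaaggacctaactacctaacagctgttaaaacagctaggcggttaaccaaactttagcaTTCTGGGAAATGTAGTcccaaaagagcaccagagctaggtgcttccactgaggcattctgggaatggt
Zfp93: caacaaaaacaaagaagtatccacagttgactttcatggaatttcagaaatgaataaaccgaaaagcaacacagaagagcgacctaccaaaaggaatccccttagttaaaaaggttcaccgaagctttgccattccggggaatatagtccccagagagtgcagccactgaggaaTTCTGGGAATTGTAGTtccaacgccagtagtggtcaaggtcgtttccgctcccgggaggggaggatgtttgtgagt

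In the comparison of CreER/flox with CreER/+ spermatogonia, all 8 members stood above 0 in the authors' deposited table, and Zfp111 and Zfp93 were called higher at an adjusted p under 0.05 of the DESeq2 Wald test. Of all 14853 genes, 1.94% were called higher, 3.42% lower and 5.36% in either direction. As the members were chosen from this contrast, nothing is read from 2 of 8 against that share. The median log2 fold change was 0.42 over the members and 0.0007 over all genes of the authors' deposited table, of which 50.1% stood above 0.

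Zfp93 had the largest difference of the members. The authors' deposited table gives it a log2 fold change of 1.15, with an SE of 0.21 and an adjusted p of 3.86e-05, and a mean normalized count, over both genotypes, of 118.6. This is 2.22-fold higher in CreER/flox cells, with a 95% interval of 1.67-fold to 2.94-fold that rests on the deposited SE. Zfp111 had the highest mean normalized count of the members, 221.2, and a log2 fold change of 0.85, with an SE of 0.14 and an adjusted p of 4.45e-06, by the authors' deposited table. It was 1.80-fold higher in CreER/flox cells, with a 95% interval of 1.48-fold to 2.18-fold. These 2 genes are not next to each other, as Zfp109 and Zfp108 lie between them. Values per library were not used here, so the spread within each genotype is known only through the SE. In bulk samples of sorted cells, fewer cells of a type and less RNA per cell cannot be told apart.

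Both calls ended under 2 other readings of the same statistics. With a t distribution of 6 degrees of freedom in place of the normal, 0.0% of all genes passed. With the Wald statistic divided by the width of its central part, 0.0337% passed (0.0135% higher and 0.0202% lower), and Zfp111 and Zfp93 had adjusted p-values of 0.0851 and 0.153. Both kept unadjusted p-values under 0.05 in either reading.

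Zfp108, the neighbour of Zfp93, came closest to a call among the rest. Its log2 fold change was 0.80 (SE 0.31) in the authors' deposited table, at an unadjusted p of 0.00965 and an adjusted p of 0.103 of the DESeq2 Wald test. Its mean normalized count in the authors' deposited table was 40.7, below that of either called gene, and its 95% interval, 1.14-fold to 2.64-fold, covers the estimates of both.

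The other 5 members did not pass the test. In the authors' deposited table their log2 fold changes were 0.46 for Zfp112 (SE 0.49, adjusted p 0.675), 0.38 for Zfp180 (SE 0.22, adjusted p 0.330), 0.34 for Zfp235 (SE 0.24, adjusted p 0.457), 0.25 for Zfp109 (SE 0.27, adjusted p 0.682) and 0.22 for Zfp61 (SE 0.18, adjusted p 0.537). The 95% intervals of these 5 all include 0. Zfp109, which lies between Zfp111 and Zfp108, and Zfp61, which follows Zfp93, had the smallest values. Whether any member differs from its neighbour in fold change was not tested, since their estimates come from the same libraries and how they vary together is not in the table.

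**Figure D1:**
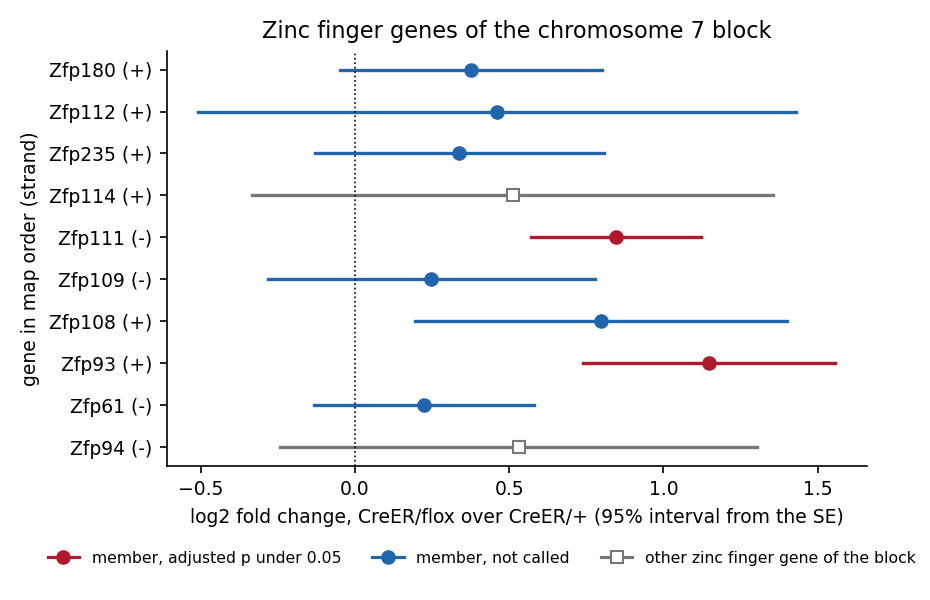
Log2 fold change of CreER/flox over CreER/+ (horizontal axis) for the 10 zinc finger genes of the block in map order with their strand (vertical axis), as deposited by the authors, with 95% intervals from the SE. All points lie above 0, the intervals of Zfp111, Zfp108 and Zfp93 exclude 0, and only Zfp111 and Zfp93 (red) passed the adjusted p, while open squares mark Zfp114 and Zfp94.

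How large a difference had to be for a call depended on abundance. The smallest Wald statistic called in the authors' deposited table was 3.00, and at their SEs this asks for 1.34-fold in Zfp111, 1.46-fold in Zfp61, 1.54-fold in Zfp93, 1.57-fold in Zfp180 and 1.64-fold in Zfp235. It asks for 1.75-fold in Zfp109, 1.90-fold in Zfp108 and 2.80-fold in Zfp112, whose mean normalized count was only 15.9 by the authors' deposited table. An estimate in Zfp112 of the size seen in Zfp111 or Zfp93 would therefore not have been called at its SE. The SEs of the members were 0.880 to 1.08 times the median SE of genes of like mean count, so the members were measured about as precisely as other genes of their abundance.

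Levels were compared between members as the mean counts of the authors' deposited table per kb of the longest protein-coding transcript. Zfp61 had the highest level, 73.0 mean normalized counts per kb, followed by Zfp111 (34.5) and Zfp93 (33.8), then Zfp180 (24.7), Zfp235 (24.1), Zfp109 (17.2) and Zfp108 (15.8), with Zfp112 last (4.60). The order of levels is thus not the order of fold changes. The spread of levels over samples was not used here, so which neighbours in this order differ cannot be said. This order holds for the longest transcripts only. With the next longest coding transcript the level of Zfp111 (3380 in place of 6402 bases) was 65.4 counts per kb, that of Zfp235 61.0, that of Zfp93 51.0 and that of Zfp61 108.6.

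Reads of such duplicated genes can be hard to place, and what the authors did with multi-mapping reads was not given in the sources used here. Of the 50-base stretches in the coding transcripts of Zfp93, 20.7% also occur in a transcript of another gene, with 12.3% in Gm11677, a processed pseudogene on chromosome 11 that has no row in the table. For Zfp108 this share was 11.3%, and the gene it shares most with is Zfp93, by 190 of 2671 stretches. It was 5.62% for Zfp235, 3.77% for Zfp111 and 3.38% for Zfp109, and no 50-base stretch of Zfp180, Zfp112 or Zfp61 was shared. The part of shared reads in the values of these genes was not tested, and those of Zfp93 and Zfp108 are to be taken as uncertain to that extent.

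The encoded proteins fall into a closely related core and 3 more distant members. Translation of the longest coding sequence in GENCODE M21 gave 555 residues for Zfp61 up to 879 for Zfp112, with 701 for Zfp111 and 645 for Zfp93. The pattern of a C2H2 finger matched 8 times in Zfp61, 12 times in each of Zfp180, Zfp112, Zfp109 and Zfp108, 13 times in Zfp93, 14 times in Zfp111 and 15 times in Zfp235. A KRAB-like match was found in 7 of 8 proteins, all but Zfp180. Among Zfp235, Zfp111, Zfp109, Zfp108 and Zfp93, 64.7% to 82.3% of aligned residues were identical, with Zfp108 and Zfp93 the closest of the 28 pairs. Every pair with Zfp180, Zfp112 or Zfp61 had 38.6% to 53.3% identity. The called genes both belong to the core, as does Zfp109, which had one of the smallest fold changes.

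**Figure D2:**
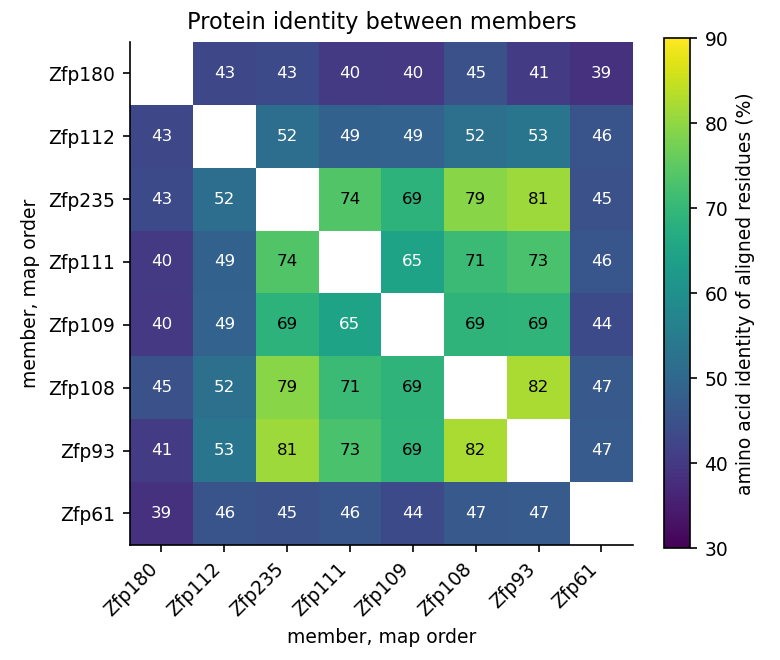
Share of identical residues (percent, colour and figures) in pairwise global alignments of the 8 translated proteins, in map order on both axes. Zfp235, Zfp111, Zfp109, Zfp108 and Zfp93 form a block of 64.7% to 82.3% identity, and all pairs with Zfp180, Zfp112 or Zfp61 stay at or below 53.3%.

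Genes around the members were examined to see how far the higher values reach. Inside the window the only other measured gene was Zfp114, at a log2 fold change of 0.51 with an SE of 0.43 (adjusted p 0.559), and Zfp94 at the far end had 0.53 (SE 0.39, adjusted p 0.490), both without a call in the authors' deposited table. All 10 measured zinc finger genes of the block thus stood above 0, with a median log2 fold change of 0.49. On the near side the closest measured gene was Nlrp5, 640 kb away beyond a run of 19 vomeronasal receptor genes without a row, with a log2 fold change of -0.10 (SE 0.43) in the authors' deposited table. Beyond Zfp94 followed Tescl (-0.96, SE 0.45, adjusted p 0.200), Smg9, which encodes a factor of nonsense-mediated mRNA decay (-0.13, SE 0.17), and Irgc1 of the immunity-related GTPases, which was called lower (-1.08, SE 0.23, adjusted p 0.000547), all in the authors' deposited table.

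In the window widened by 1 Mb on each side and without the zinc finger block, 4 of 29 measured genes stood above 0. Of these 29, 4 were called lower, namely Irgc1, Gm5893, Lypd4 and the glutamate receptor subunit gene Grik5, against 3.42% of all genes, and 0 were called higher by the DESeq2 Wald test, where 1 (Nlrp4e) stood above 0 at an unadjusted p under 0.05. Over the whole of chromosome 7, 36 of 1103 genes (3.26%) were called higher and 44 (3.99%) lower, against 1.94% and 3.42% of all genes, and the median log2 fold change was -0.0024 in the authors' deposited table.

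**Figure D3:**
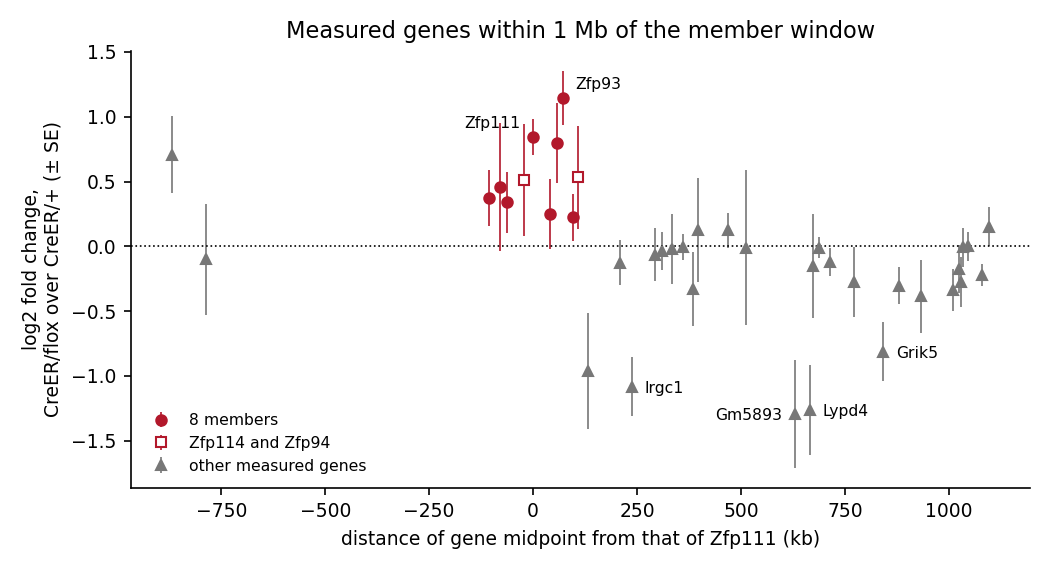
Log2 fold change of CreER/flox over CreER/+ with its SE (vertical axis) against the distance of each measured gene from Zfp111 in kb (horizontal axis), from 1 Mb before to 1 Mb after the members. The zinc finger block (red) lies wholly above 0, while 25 of the 29 other genes (grey) lie below 0, with called genes named.

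The rest of the C2H2 family gives the setting. Outside the window, 521 measured genes encode a protein with at least 3 finger matches, of which 12 (2.30%) were called higher and 7 (1.34%) lower in the authors' deposited table, against 1.94% and 3.42% of all genes. Zfp94 is counted among these 521, since its span runs past the end of the window. Their median log2 fold change was 0.045, and 58.7% stood above 0. The 132 among them with a KRAB-like match had a median of 0.15, with 71.2% above 0, 6 called higher and 0 called lower by the DESeq2 Wald test (23 higher and 0 lower at an unadjusted p under 0.05). The 389 without such a match had a median of 0.024, with 54.5% above 0, 6 called higher and 7 called lower (29 and 30 at an unadjusted p under 0.05). The median of the KRAB-like genes elsewhere was above 0 but below that of the members, and whether the members differ from them was not tested.

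The called family members elsewhere of smallest adjusted p were, on the higher side of the authors' deposited table, Zic1, a regulator of neural development (0.70, SE 0.14, adjusted p 0.000406), Zfp600 (0.50, SE 0.11, adjusted p 0.00113), Gm10778 (0.63, SE 0.14, adjusted p 0.00115), Zfp617 (0.65, SE 0.15, adjusted p 0.00147) and Zfp808 (0.63, SE 0.15, adjusted p 0.00325). None of these 5 log2 fold changes reached that of Zfp111 or Zfp93, which drew attention through their values here. The largest among all 521, called or not, was 0.89, above that of Zfp111. On the lower side of the authors' deposited table stood Zfp512b (-0.40, SE 0.11, adjusted p 0.0112), Plagl2 (-0.37, SE 0.11, adjusted p 0.0220), Zfp541, a regulator of meiotic prophase (-0.88, SE 0.26, adjusted p 0.0263), Zfp646 (-0.34, SE 0.11, adjusted p 0.0319) and Wiz, a partner of the histone methyltransferase G9a (-0.30, SE 0.10, adjusted p 0.0359).

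**Figure D4:**
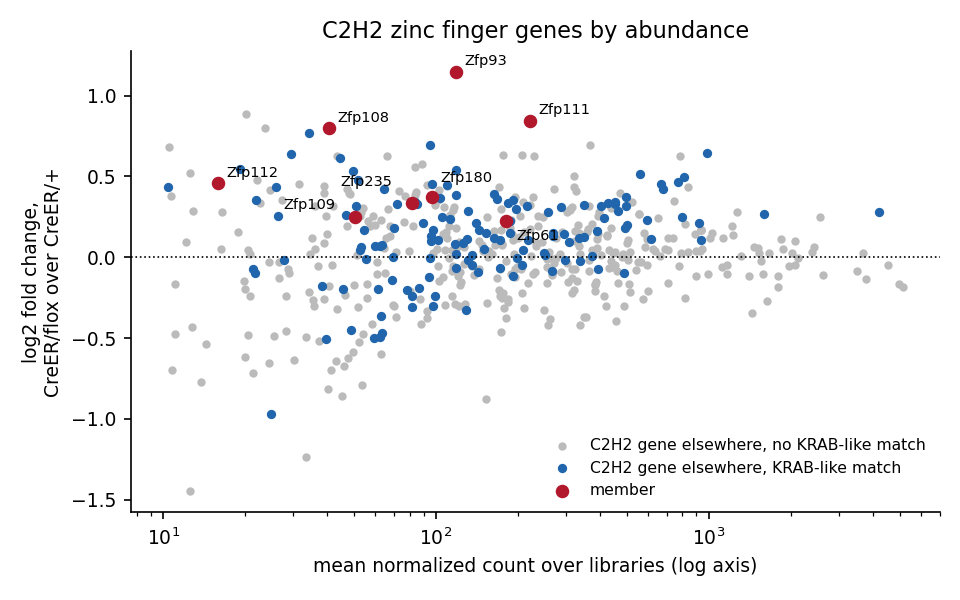
Log2 fold change of CreER/flox over CreER/+ (vertical axis) against the mean normalized count (horizontal log axis) for the 8 members (red) and the 521 C2H2 genes outside the window, with (blue) and without (grey) a KRAB-like match. Zfp93 at 1.15 lies above every other gene plotted, and the other members lie within the range of the family.

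C2H2 genes at most 200 kb apart formed 21 clusters with 5 or more measured genes, the members' block of 10 included. By the authors' deposited table, the medians of the other 20 ran from -0.30 to 0.41 log2 fold change, and that of the members' block, 0.49, was the highest, which describes a block chosen for its values. Every measured gene stood above 0 in 3 of the other clusters, and 4 held a gene called higher. The cluster from Zfp808 to Gm5141 on chromosome 13 was the only other one with more than 1 such gene, with 5 of 5 genes above 0, a median of 0.40 and 2 genes called higher, Zfp808 and Zfp934. This depends on how clusters were drawn. Zfp980 (0.46, adjusted p 0.0186), Zfp600 (0.50, adjusted p 0.00113) and Rex2 (0.46, adjusted p 0.0142) on chromosome 4 were called higher but fall in none of the 21 clusters. Zfp979 on the same chromosome (0.51, adjusted p 0.00414) was called higher and does lie in a cluster. The 6 other clusters on chromosome 7 had medians from -0.15 to 0.050, and 0 of their 50 genes were called by the DESeq2 Wald test (3 at an unadjusted p under 0.05).

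**Figure D5:**
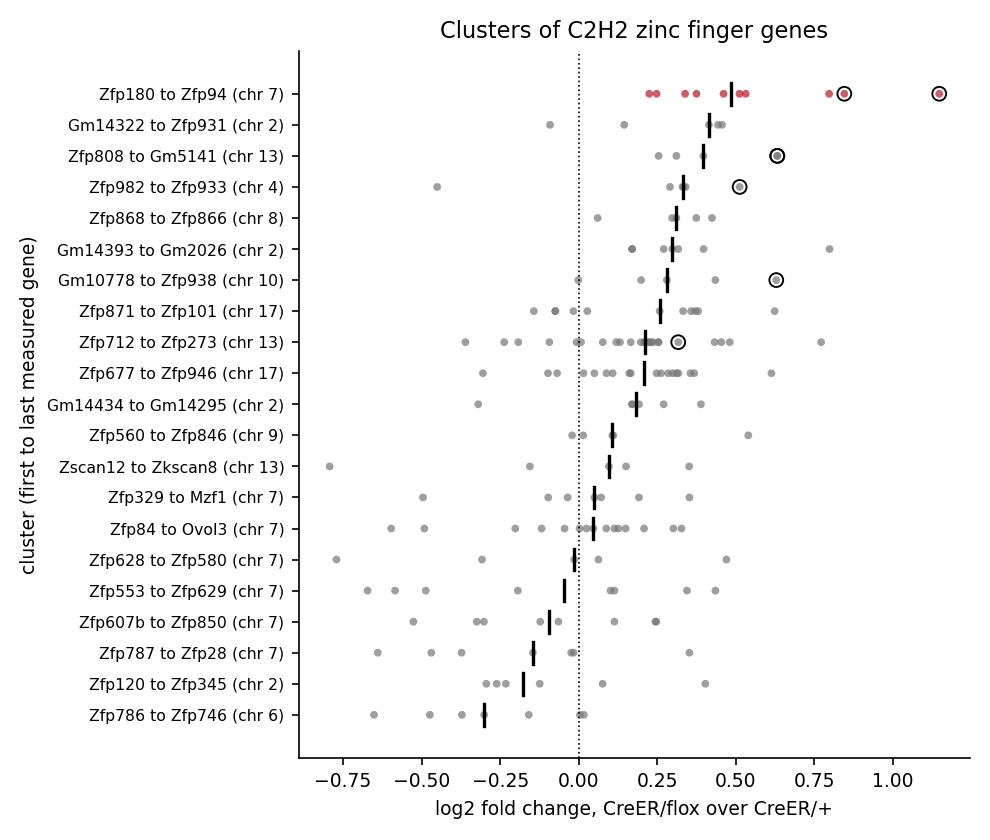
Log2 fold change of CreER/flox over CreER/+ (horizontal axis) of each measured gene in 21 clusters of C2H2 genes, ordered by median (vertical bar), with rings around called genes. The block that holds the members (red) stands at the top with a median of 0.49, and the other chromosome 7 clusters have medians from -0.15 to 0.050.

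The letters shared by the promoters were also looked up in other genes. Outside the block, 52 measured genes had the same 16-letter run in a promoter, with a median log2 fold change of 0.040, 57.7% above 0 and 0 called by the DESeq2 Wald test (6 higher and 4 lower at an unadjusted p under 0.05) in the authors' deposited table. Among 11578 such genes whose promoters lack it, 4.90% were called. A shorter run of its last 12 letters, GGGAANTGTAGT, was found in 251 measured genes outside the block, of which 2 were called higher (0.797%) and 3 lower (1.20%), with a median of 0.047. Among the 11379 genes outside the block whose promoters lack it, 1.49% were called higher and 3.45% lower. This shorter run is frequent in the family. It was found in 6 of 8 members, in 9.86% of the 426 C2H2 genes elsewhere with a promoter and in 20.5% of the 117 with a KRAB-like match.

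The co-repressors through which KRAB proteins act were examined as a list of 42 symbols, of which 41 had a row. In the authors' deposited table Trim28 stood at 0.050 (SE 0.067, adjusted p 0.750) and Setdb1 at 0.011 (SE 0.073, adjusted p 0.963), at mean normalized counts of 3490 and 1941. The list had a median log2 fold change of 0.040. Of its 41 measured genes 0 were called higher and 2 (4.88%) lower, against 1.94% and 3.42% of all genes. At an unadjusted p under 0.05 of the DESeq2 Wald test 5 were higher and 3 lower. The called genes were Chd3, a helicase of the NuRD complex (-0.42, SE 0.08, adjusted p 9.27e-05), and Ehmt2, which encodes G9a (-0.23, SE 0.06, adjusted p 0.010), by the authors' deposited table.

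The targeted gene and the cell type were checked last. Tert stood at a log2 value of 0.29 (SE 0.26, adjusted p 0.595) by the authors' deposited table and was not called. Which exons Cre removes was not given in the sources used here, and this value cannot check the labels or the direction of the comparison. Of 21 listed symbols for undifferentiated spermatogonia 20 had a row, and the other, Plzf, is an older name of the listed Zbtb16. Their mean normalized counts were 66.1 to 5143, with 13 below 0, by the authors' deposited table. Of these 20, 1 (5.0%) was called higher, against 1.94% of all genes, namely Dazl (0.23, adjusted p 0.00997). At an unadjusted p under 0.05 of the DESeq2 Wald test 1 was higher and 2 were lower. Of 5 markers of differentiating spermatogonia, Kit among them, 4 stood below 0 and 0 were called by the DESeq2 Wald test (1 higher and 1 lower at an unadjusted p under 0.05). Of the spermatid markers 15 of 15 stood below 0, at a median of -1.09 on the log2 scale, with mean normalized counts of 21.8 to 2304, and 7 were called lower, against 3.42% of all genes, in the authors' deposited table. Of 8 Sertoli markers 6 had a row, with 3 above 0 and 3 below 0. Only 1 of these 6 was called higher by the authors' deposited table, against 1.94% of all genes. This was Trf, which encodes transferrin (0.62, SE 0.15, adjusted p 0.00255). Leydig cells and leukocytes had 1 of 5 and 1 of 4 markers with a row, both below 0, and the 3 endothelial and 4 erythroid markers all stood above 0. No marker of these 4 cell types was called (0 at an unadjusted p under 0.05 of the DESeq2 Wald test). The erythroid markers Hba-a1 and Hba-a2 have identical values and so are not separate measurements. The SE of each erythroid marker, 1.26 to 1.32, was larger than its log2 fold change. The part of such other cells in the values of the zinc finger genes was not tested.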

How the data were processed

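The values came from 1 table of the authors' comparison, with 14853 rows keyed by Entrez gene ID. DESeq2, Bowtie, Bowtie2 2.0.0-6, TopHat2 2.0.4 and Trim Galore are listed in the submitters' processing notes, beside GRCm38 and mm10. Total RNA went into a stranded low-input kit, per the labels' protocols. The read counter, its strand setting and its annotation were not given in the sources used here. Per the file headers, the authors deposited a mean normalized count signal over libraries, log2 fold changes with their SE, a Wald score, p-values and adjusted p-values. Fold changes were read as CreER/flox over CreER/+ from the table's name, which says flox against WT. Library totals were not used here, so depth is known only from mean counts, all above 10.

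No model was fitted across libraries, and a gene was called at a deposited adjusted p under 0.05. Named were the members, called genes of the window, the genes nearest to its ends, the 5 C2H2 genes elsewhere of smallest adjusted p in each direction, called co-repressors with Trim28 and Setdb1, and Tert. Gm5893, Lypd4, Grik5, Nlrp4e, Zfp934, Zfp980, Rex2, Zfp979 and the cluster names were chosen after their values were seen. The members and lists were chosen with earlier results of these data known.

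IDs of 14828 rows matched RefSeq (GRCm38.p6), which gave symbols and coordinates. Proteins were translated from GENCODE M21, since no protein table was at hand. A finger was counted as C, 2 to 4 residues, C, 12 residues, H, 3 to 5 residues, H. Identity came from global alignments (Biopython 1.88, BLOSUM62). A KRAB-like match is a short pattern that misses divergent boxes. Intervals of 95% used the normal distribution. Steps across genes were tested on simulated data. Computation used matplotlib 3.10.9, scipy 1.17.1, numpy 2.4.6, pandas 2.3.3 and Python 3.11.15. The shared promoter run was taken from the members' promoters.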

Additional observations from a re-analysis of the deposited data

How the results depend on the processing

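The 2 calls among the members held with adjustment over genes whose mean count reached 100, identical rows counted once and centring. They also held with removal of the trend on mean count, GC content and transcript length. Adjusted p thresholds of 0.01 and 0.1 and a minimum fold of 1.5 were met by the deposited values themselves. Adding Zfp114 and Zfp94 to the list could change no call, so these settings test nothing. The 2 calls ended under 2 alternatives. With a t distribution of 6 degrees of freedom 0 members passed (3 at an unadjusted p under 0.05, adjusted p 0.439 for Zfp111 and for Zfp93). With the Wald statistic divided by the width of its central part, 1.45, 0 passed (2 at an unadjusted p under 0.05, adjusted p 0.0851 for Zfp111 and 0.153 for Zfp93). No member changed sign. With the trend removed, Zfp111 stood at 0.87, Zfp93 at 1.17 and Zfp61, the lowest, at 0.25.

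The 19 called C2H2 genes elsewhere became 6 at an adjusted p under 0.01, 41 under 0.1, 7 with a fold of 1.5, 6 without the trend, and 0 both by the t distribution (48 at an unadjusted p under 0.05) and by the width (26). The 2 called co-repressors became 1, 4, 0, 1, 0 (5) and 0 (3) in the same order. These counts are out of 521 C2H2 genes and 41 co-repressors. Of all genes, 5.36% were called in either direction at first. In the same order of settings the shares of all genes were 1.78%, 9.02%, 3.26%, 2.86%, 0.0% and 0.0337%. Inside the window 0 of 1 other gene was called. With 1 Mb added on each side, 4 of 31 were called lower and 0 higher, against 3.42% and 1.94% of all genes. No paired analysis was possible because values per library were not used here, and leaving out single replicates was not run for the same reason. Depth limits the members of low count most, Zfp112 above all.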

Other observations

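C2H2 genes of chromosome 13, which also carries Tert, had 36 of 49 values above 0, a median log2 fold change of 0.17 and 3 genes called higher (6.12%) with 0 called lower by the DESeq2 Wald test (8 and 2 at an unadjusted p under 0.05). Over all 567 measured genes of that chromosome the median was 0.075, 62.1% stood above 0, and 15 (2.65%) were called higher and 18 (3.17%) lower, against 1.94% and 3.42% of all genes. Of the 4 zinc finger clusters outside the members' block that held a gene called higher, 2 lie on chromosome 13. Zfp600, Zfp979, Rex2 and Zfp980 on chromosome 4 were also called higher. Of these only Zfp979 lies in one of the clusters. Shares for chromosome 4 were not drawn up, and a link with the place of Tert was not tested.

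With the trend of fold change on mean count, GC content and transcript length removed, the KRAB-like genes outside the window still had 94 of 132 values above 0, with a median of 0.11, and the members had a median of 0.57.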
